A study of Mus musculus with 21 samples.

Results

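The cytosolic ribosomal protein genes were described here across mouse HSC (hematopoietic stem cells) and MEP (megakaryocyte-erythroid progenitors) that carried wild-type or mutant Etv6. The set was taken by name: protein-coding genes called Rpl or Rps with a number, optionally ending in a or x, plus Rplp0, Rplp1, Rplp2, Rpsa and Rps3a1, without pseudogenes and without the Rps6k kinases. This gave 77 of the 30519 genes in the table, 31 of the small and 46 of the large ribosomal subunit. Both cell types were sorted from bone marrow by flow cytometry, and RNA from small inputs was sequenced in 21 libraries that form 8 groups. The labelled Etv6 genotypes were wild type (WT), P216L, S211I, and S211I together with P216L (called double mutant below). The genotype field spells the second allele P211I while the titles spell it S211I, which is the form kept. HSC S211I, MEP WT and MEP S211I had n = 2 libraries, and each other group had n = 3. The labels used here do not state zygosity, animal age or which animals the libraries came from. The p-values therefore measure only the spread between these samples, which may be technical. The alleles change amino acids, so counts per gene do not check the genotype labels.

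The ribosome reads messenger RNA into protein. Its small subunit decodes the message, and its large subunit joins amino acids into a chain. Each subunit is an assembly of ribosomal RNA and many proteins that are needed in matched amounts, and messenger RNAs of these proteins share a run of pyrimidines at their 5′ end that places their translation under control of the kinase mTORC1. Red cell precursors depend strongly on ribosome supply: loss of a copy of any of several ribosomal protein genes causes Diamond-Blackfan anemia, a failure of red cell production. Etv6 is a transcriptional repressor of the ETS family, whose members bind DNA at a GGAA core.

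Since genes of the set are often regulated together and the mutated factor is an ETS protein, the stretches around the start sites of 6 of them are shown. They are Rplp0 and Rpl4, which had the smallest p-values in the comparison of the WT cell types below, Rps6, Rpl6 and Rps7, which also passed its threshold, and Rpl5, whose difference there was below 0. Each runs 5′ to 3′ in the direction of transcription from 70 bases before to 20 bases after the annotated start, from RefSeq on GRCm38.p6, and capitals mark GGAAG or its reverse complement CTTCC.
Rplp0 (chr5:115559397-115559486, plus strand): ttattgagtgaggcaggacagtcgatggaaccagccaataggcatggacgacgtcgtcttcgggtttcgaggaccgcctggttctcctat
Rpl4 (chr9:64173317-64173406, plus strand): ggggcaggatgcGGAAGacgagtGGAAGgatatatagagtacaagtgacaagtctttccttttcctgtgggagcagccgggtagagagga
Rps6 (chr4:86857348-86857437, minus strand): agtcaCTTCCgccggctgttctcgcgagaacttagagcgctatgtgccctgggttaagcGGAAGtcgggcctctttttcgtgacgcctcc
Rpl6 (chr5:121204431-121204520, plus strand): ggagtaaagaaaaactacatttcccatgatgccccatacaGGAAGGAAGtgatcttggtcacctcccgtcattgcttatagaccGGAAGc
Rps7 (chr12:28635934-28636023, minus strand): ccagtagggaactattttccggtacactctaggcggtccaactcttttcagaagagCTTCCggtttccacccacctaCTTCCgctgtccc
Rpl5 (chr5:107900458-107900547, plus strand): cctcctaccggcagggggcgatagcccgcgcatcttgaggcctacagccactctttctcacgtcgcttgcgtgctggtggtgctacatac
Rpl4 held 2 such matches, Rps6 2, Rps7 2 and Rpl6 3, of which 2 overlap, while the stretches of Rplp0 and Rpl5 held 0. The stretches shown are a selection. Of the genes named below as past that threshold but not shown, Rpl13, Rpsa and Rpl13a held 1 match each and Rps2 held 0. Of the 77 genes, 57 had an entry in the promoter table, with 67 start-site windows of 300 bases (250 before and 50 after the start). In the 90-base stretches, GGAAG on either strand was present in 58.2% of the windows of ribosomal protein genes and in 35.4% of all 20708 windows. The longer ETS motif CCGGAAG, searched on both strands of the 300 bases, was present in 37.3% of them against 11.8% of all windows. It was found in 24 of the 57 genes, Rps6, Rpl6, Rps7, Rpsa, Rps2, Rpl11 and Rplp2 among them. The pyrimidine run CTTTCC was searched on the sense strand, whose letters match the RNA, from 30 bases before to 50 after the start. It was present in 28.4% against 3.52%, with Rpl4, Rpl6 and Rps19 among the 17 genes that held it. The YY1 motif AAGATGGC was present in 10.4% against 3.08%, the GC box GGGCGG in 61.2% against 47.1% and TATAAA in 8.96% against 12.4%, each on both strands of the 300 bases. These are matches of letters, and no binding was measured. GGAAG is contained in CCGGAAG, no other motif contains another, and matches of different motifs may share end letters.

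Depth differed between the cell types. The MEP libraries held 3387389 to 12130358 counts, and 10 of the 11 HSC libraries held 151216 to 2250654. The library labelled HSC S211I replicate 2 stood apart with 13154016 counts. Its summed level of 12 stem cell markers was 1120 CPM (counts per 1e6 counts in the library), below the 1931 to 6730 CPM of the other HSC libraries and nearer to the 517 to 834 CPM of MEP. Its 11 erythroid and MEP markers summed to 21051 CPM, within the 20775 to 25058 CPM of MEP. HSC P216L replicate 3, at 23572.5 CPM, was also within that range, and the other HSC libraries held 3224 to 14042 CPM. The 11 markers include the globin genes Hba-a1 and Hbb-bt. Within P216L and the double mutant, these 2 were lower in MEP than in HSC, though not past the threshold used below. None of the 12 and 11 markers was at 0 in every library of either cell type. HSC P216L replicate 1 stood apart in 7 endothelial and stromal markers, which summed to 12819 CPM against at most 3526 CPM in any other library. The biological coefficient of variation, the spread between libraries of a group on the scale of the mean, was 1.60 in HSC and 0.174 in MEP. In bulk samples such as these, a change in the share of cells of a type and a change in RNA per cell cannot be told apart.

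Levels of single ribosomal protein genes spanned a wide range. Per kilobase of transcript, using the median length of each gene's protein-coding transcripts in GENCODE M21, the highest mean level over the 21 libraries was that of Rplp0, the large-subunit stalk base, at 1394 CPM per kb. Rpl3, which lies near the peptidyl transferase center, stood at 1223, Rpl13 at 1072 and Rpl4 at 1029 CPM per kb. The lowest were Rpl12, a neighbour of the stalk, at 23.0, Rpl5 at 34.4, Rps20 at 44.2 and Rps27 at 44.8 CPM per kb. The place of Rps20 rests on its median transcript length of 3706 bases, the longest of the set. By mean CPM, at 164, it ranked 55 of the 77 genes. Rps27 is an uncertain value: a near-identical protein-coding copy, Rps27rt, held 76.6 to 147 CPM in the MEP libraries while Rps27 itself held 4.92 to 22.5 CPM, so the counting could have split reads between them. Rps6 likewise has a transcribed pseudogene, Rps6-ps4, that held 242 to 461 CPM in MEP beside 731 to 1067 CPM for Rps6. In HSC, Rps6-ps4 was above Rps6 in WT replicate 3 (287 against 156 CPM). The same held in P216L replicate 2 (578 against 207 CPM) and replicate 3 (415 against 306 CPM), and it was below Rps6 in the other HSC libraries. Across the 77 genes the log2 mean level and the log2 transcript length had a Pearson r of 0.21, a description across genes of the same libraries.

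Together the 77 genes took a larger share of the counts in every MEP library than in any HSC library. Their summed level in HSC WT was 16448, 14337 and 13242 CPM in replicates 1 to 3. In HSC P216L it was 18600, 17677 and 18040 CPM, in HSC S211I 16011 and 26579 CPM, and in the HSC double mutant 21606, 19110 and 24253 CPM. The WT libraries were thus below all P216L and double mutant libraries, and S211I replicate 1 lay among the WT values while its replicate 2 was the highest of the 11. In MEP WT the sum was 37099 and 31949 CPM, in MEP P216L 31798, 31007 and 39196 CPM, in MEP S211I 29436 and 30388 CPM, and in the MEP double mutant 31456, 32230 and 40190 CPM. The 2 cell types did not overlap, the lowest MEP library (29436 CPM) standing above the highest HSC library (26579 CPM). As a share of all counts this was 2.94 to 4.02% in MEP and 1.32 to 2.66% in HSC.

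**Figure D1:**
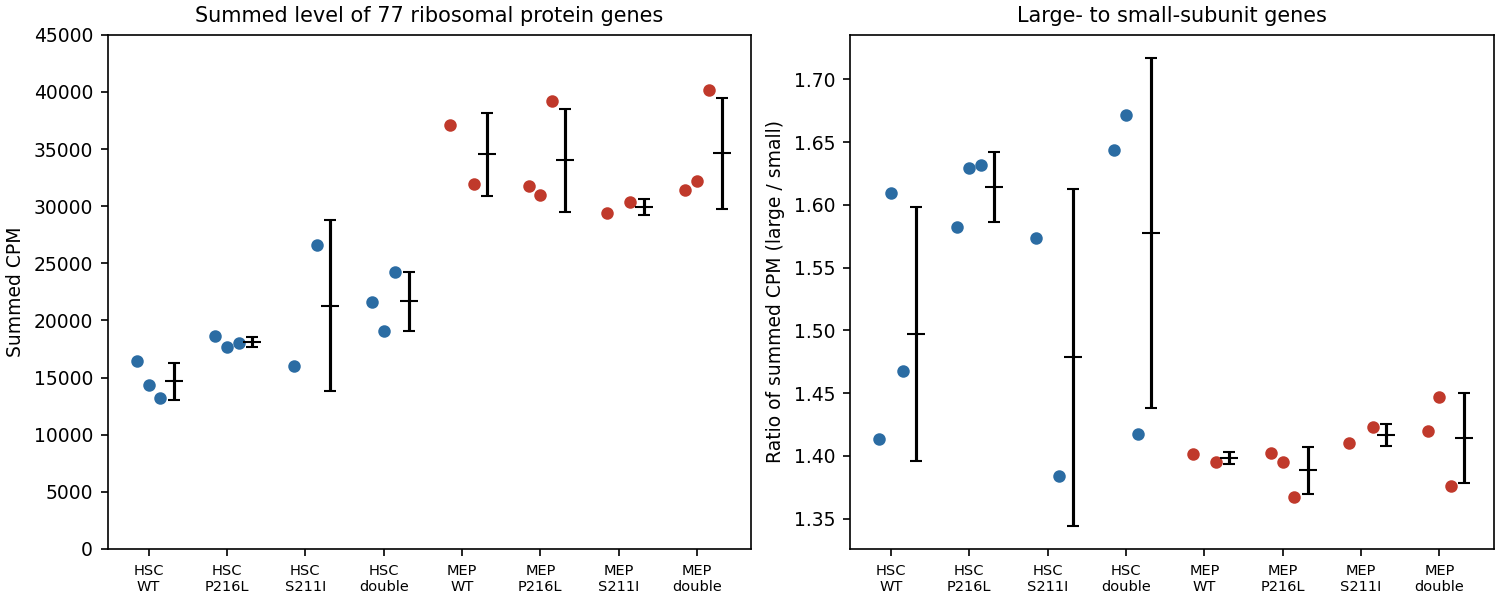
The left panel plots the summed CPM of the 77 ribosomal protein genes in each library (points) by group, and the right panel the ratio of summed large- to small-subunit CPM, with group mean and SD as bars (blue HSC, red MEP). On the left all 10 MEP libraries lie between 29436 and 40190 CPM, above the 11 HSC libraries, and on the right MEP spans 1.37 to 1.45 and HSC 1.38 to 1.67.

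Group means of the sum were 14676 ± 1629 CPM in HSC WT (SD, n = 3), 18106 ± 465 in P216L (n = 3), 21295 ± 7472 in S211I (n = 2) and 21656 ± 2572 in the double mutant (n = 3). They were 34524 ± 3641 in MEP WT (n = 2), 34000 ± 4517 in P216L (n = 3), 29912 ± 673 in S211I (n = 2) and 34625 ± 4835 in the double mutant (n = 3). The mean sum of MEP was 2.35 times that of HSC in WT, 1.88 times in P216L, 1.40 times in S211I and 1.60 times in the double mutant. With TMM-scaled library sizes (trimmed mean of M-values) these ratios were 3.79, 2.49, 1.56 and 1.85, and against HSC S211I replicate 1 alone the S211I ratio of plain CPM was 1.87. Both subunits were higher in MEP: the mean small-subunit sum was 2.44, 2.06, 1.43 and 1.70 times that of HSC in WT, P216L, S211I and the double mutant, and the large-subunit sum 2.29, 1.77, 1.39 and 1.53 times. The ratio of summed large- to small-subunit CPM had a mean of 1.55 over the HSC libraries and 1.40 over MEP, and 8 of the 11 HSC libraries lay above every MEP library.

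Each of the 77 genes was detected in all 10 MEP libraries. In HSC 67 to 77 were detected, and after the libraries were thinned to a common 151215 counts the mean number was 65.5 to 76.9 in HSC and 76.5 to 77 in MEP. In HSC WT, 17 of the genes were listed at 0 in at least 1 library, in P216L 9, in S211I 3 and in the double mutant 1, and none was at 0 in every library of a group. Among those at 0 in WT were Rps10 (replicate 2), Rpl15 (replicate 3) and Rps12 (replicate 3), all detected in every MEP library. These counts are of transcripts caught in small libraries, and a value of 0 there does not show that a gene was silent. The coefficient of variation of a gene across libraries of a cell type had a median of 46.0% in HSC and 13.4% in MEP. The set's profile, correlated over the 77 genes with the mean of the other MEP libraries, had r = 0.993 to 0.998 in MEP, 0.573 to 0.701 in HSC WT, 0.558 to 0.830 in P216L and 0.855 to 0.928 in the double mutant. In HSC S211I it was 0.792 in replicate 1 and 0.987 in replicate 2. The 77 points of each r share a library and its depth, and the part of depth in these values was not tested.

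**Figure D2:**
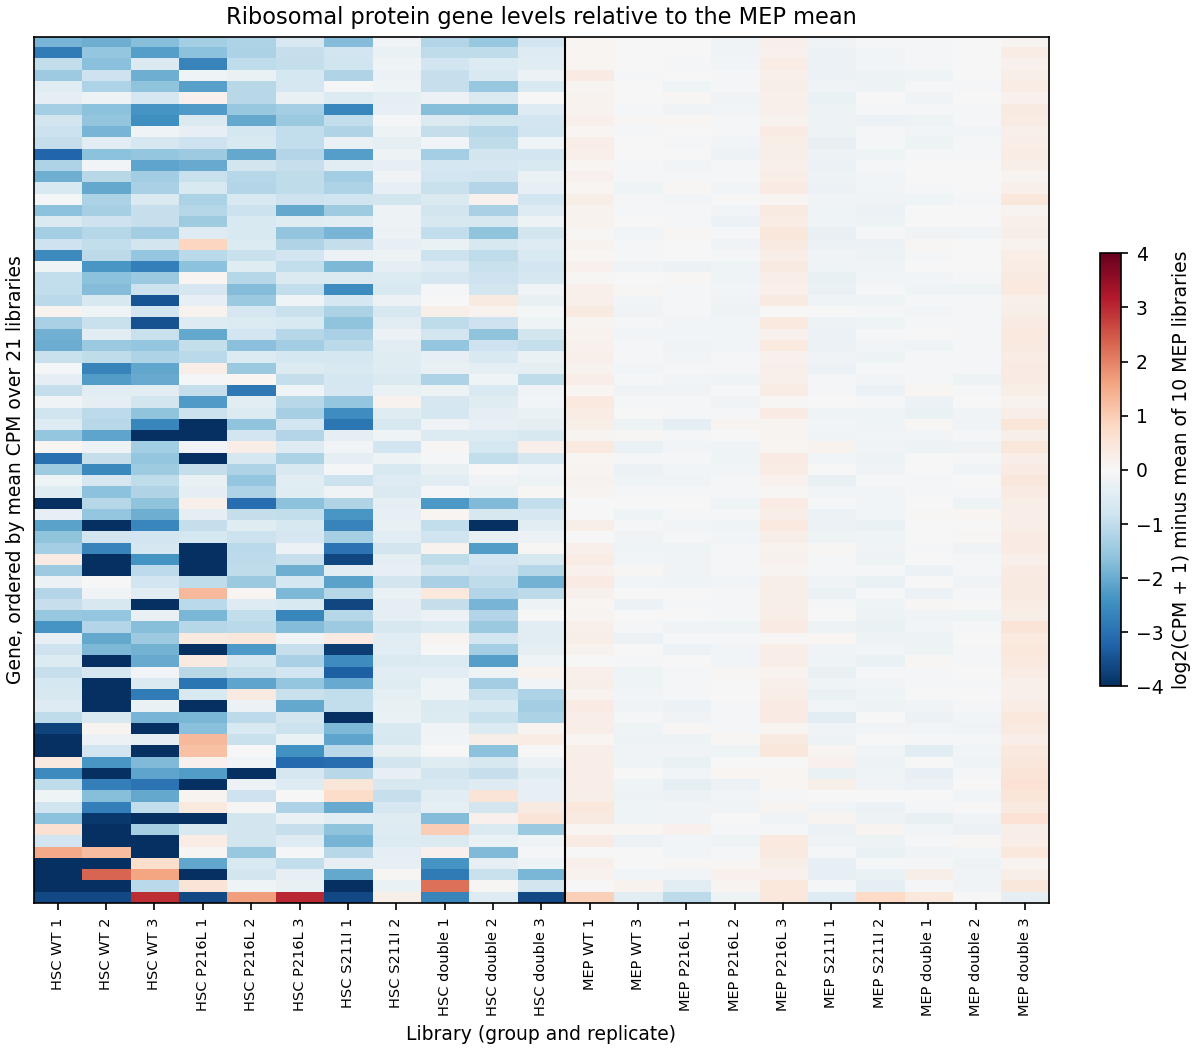
Colours show each gene's log2(CPM + 1) in each of the 21 libraries minus its mean over the 10 MEP libraries, with genes in rows ordered by mean CPM, the colour scale ending at −4 and 4, and a line between HSC and MEP. HSC columns are mostly blue, with scattered dark cells where a gene is at or near 0, HSC S211I replicate 2 is close to the MEP columns, and MEP P216L replicate 3 and MEP double mutant replicate 3 are pale red over most genes.

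The comparison of MEP with HSC in WT asks how the set differs between stem cells and the progenitors that lead to red cells and platelets. Of the 77 genes, 10 rose in MEP and 0 fell at an adjusted p below 0.05 (edgeR, quasi-likelihood test on 12036 genes), and 75 had a log2 fold change above 0. Among all genes tested, 3.62% were called higher and 0.474% lower (4.1% in either direction). At an unadjusted p below 0.05, 49 of the genes were higher and 0 lower by edgeR, where 27.8% of all genes were past that mark. The median log2 fold change of the 77 genes was 1.95 and that of all genes tested 0.90, with 62.9% of all genes above 0. That general shift depended on the scaling: the median of all genes was 0.17 with relative log expression (RLE) size factors and 0.00 with DESeq2, while the 77 genes stood at 1.16 and 1.19. The 77 genes were thus 1.05, 0.99 and 1.19 above the median of all genes under the 3 scalings, and 0.37 above it without HSC WT replicate 3 (2.01 against 1.64). The calls over all genes split into 436 higher and 57 lower, into 194 and 72 with RLE, and into 1235 and 925 with DESeq2. By subunit, 5 of 31 small-subunit genes (median 2.03) and 5 of 46 large-subunit genes (median 1.89) were called.

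How many genes passed rested on single libraries and on how the spread was estimated. Without either MEP WT library the count was 2, and without HSC S211I replicate 2, which is in neither WT group but takes part in the scaling, the filter and the shared spread, it was 16. It was 2 with RLE size factors, 17 with DESeq2, and 0 both without a low-count filter and in a fit of the 2 WT groups alone. The call of each single gene below carries this limit.

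**Figure D3:**
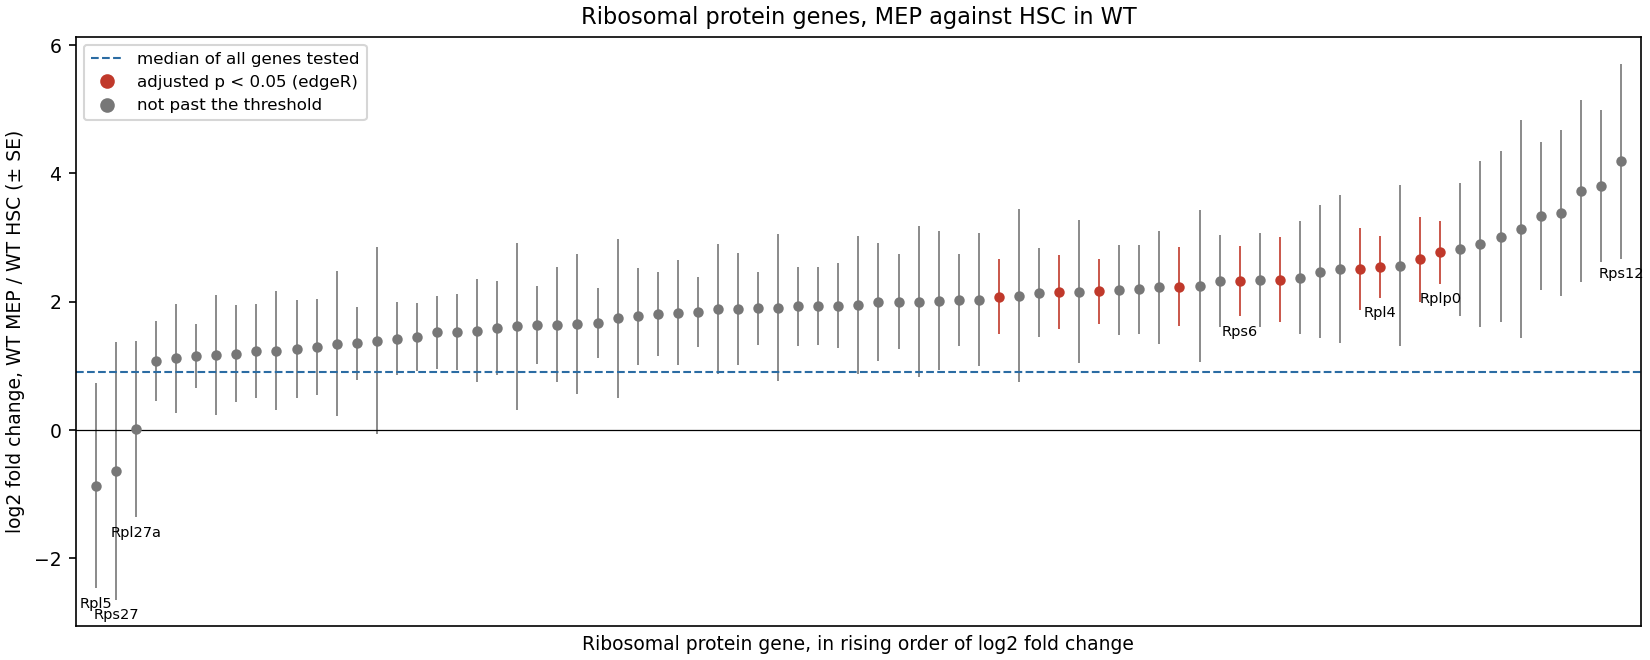
Points show the log2 fold change of each of the 77 genes, WT MEP against WT HSC, with the SE as bars, in rising order with 7 genes named, and the dashed line the median of all genes tested (0.90). The 10 genes past the threshold are red and lie between 2.08 and 2.77, while the largest changes, up to 4.19 for Rps12, have wide bars and did not pass.

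The stalk is the flexible arm of the large subunit that recruits elongation factors, built on Rplp0 with the acidic proteins Rplp1 and Rplp2. Rplp0 stood at 238, 563 and 358 CPM in WT HSC and at 1754 and 1652 CPM in WT MEP. Both MEP libraries were far above all 3 HSC libraries, and Rplp0 was 2.77 ± 0.49 higher on the log2 scale (edgeR, adjusted p = 0.0022). Rplp1 was at 46.7, 107 and 72.9 CPM in HSC and 278 and 230 CPM in MEP, a difference of 2.38 ± 0.88 that did not pass (edgeR, adjusted p = 0.090). Rplp2 was at 85.8, 157 and 154 CPM against 266 and 240 CPM, with no overlap and a difference of 1.55 ± 0.80 (edgeR, adjusted p = 0.20). Rpsa, the laminin-receptor homologue of the small subunit, was listed beside the stalk genes. It held 92.6, 273 and 289 CPM in HSC and 987 and 858 CPM in MEP, and rose by 2.66 ± 0.66 (edgeR, adjusted p = 0.023).

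Among the other large-subunit proteins, Rpl4, which lines the exit tunnel of the growing chain, was at 615, 570 and 687 CPM in WT HSC and 2358 and 2251 CPM in WT MEP. Its 3 HSC libraries were close to one another, and it rose by 2.54 ± 0.48 (edgeR, adjusted p = 0.0039). Rpl13 stood at 382, 585 and 266 CPM against 1296 and 986 CPM, a rise of 2.16 ± 0.51 (edgeR, adjusted p = 0.016). Rpl6 and Rpl13a, of which the second is also known for silencing inflammatory transcripts, rose by 2.16 ± 0.58 and 2.08 ± 0.58 (edgeR, adjusted p = 0.034 and 0.040). Rpl6 was at 192, 343 and 283 CPM in HSC and 847 and 720 CPM in MEP, and Rpl13a at 278, 175 and 198 CPM against 568 and 557 CPM. Rpl6 and Rpl13a fell outside the rule for naming genes and are named because the count of calls is small. Rpl3, also among the 10 genes with the highest mean level, had a difference of 1.67 ± 0.54 that did not pass (edgeR, adjusted p = 0.067).

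In the small subunit, Rps6, the protein phosphorylated by the S6 kinases downstream of mTORC1, was at 516, 289 and 156 CPM in WT HSC and 979 and 880 CPM in WT MEP. It rose by 2.32 ± 0.55 (edgeR, adjusted p = 0.017). Rps2, which sits near the entry of the messenger RNA channel, was at 390, 324 and 194 CPM against 1103 and 978 CPM and rose by 2.51 ± 0.64 (edgeR, adjusted p = 0.027). All HSC values of Rps6 and Rps2 lay below the lower MEP value. The copy Rps6-ps4 held 0, 171 and 287 CPM in WT HSC and 283 and 318 CPM in WT MEP. Rps7 was at 99.0, 282 and 198 CPM against 617 and 572 CPM, with a rise of 2.23 ± 0.62 (edgeR, adjusted p = 0.038). Just outside the threshold lay Rps3a1 at 1.84 ± 0.55 and Rps9 at 1.89 ± 0.58 (edgeR, adjusted p = 0.054 and 0.055). Rps3, a small-subunit protein that also takes part in DNA repair, differed by 1.43 ± 0.57 (edgeR, adjusted p = 0.11).

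The 5S particle, Rpl5 and Rpl11 with the 5S ribosomal RNA, also binds Mdm2 when ribosome assembly fails and so links it to p53. Neither gene passed. Rpl5 was at 0, 246 and 145 CPM in WT HSC and at 52.9 and 44.3 CPM in WT MEP, a difference of −0.87 ± 1.60 (edgeR, adjusted p = 0.78). The HSC values lay on both sides of the MEP values, and the other HSC groups held 0 to 48.9 CPM. Rpl11 stood at 83.5, 171 and 139 CPM in HSC and 217 and 187 CPM in MEP, with no overlap and a difference of 1.24 ± 0.93 (edgeR, adjusted p = 0.41). Beside Rpl5, only Rps27 had a value below 0, at −0.64 ± 2.01, and Rpl27a was at 0.01 ± 1.37. Rps27 was at 0, 0 and 93.7 CPM in WT HSC and Rpl27a at 202, 166 and 0 CPM, and without WT HSC replicate 3 their values were 9.12 ± 4.20 and −0.58 ± 1.19. Summed with its copy Rps27rt, Rps27 held 251, 202 and 93.7 CPM in WT HSC and 140 and 103 CPM in WT MEP, so the HSC values of the pair lay on both sides of MEP. With RLE size factors and with DESeq2 Rpl27a too was below 0. The other members with the lowest mean level, Rpl28 and Rpl12, were at 0 in 2 of the 3 WT HSC libraries each and differed by 1.39 ± 1.46 and 3.14 ± 1.70 (edgeR, adjusted p = 0.58 and 0.23).

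**Figure D4:**
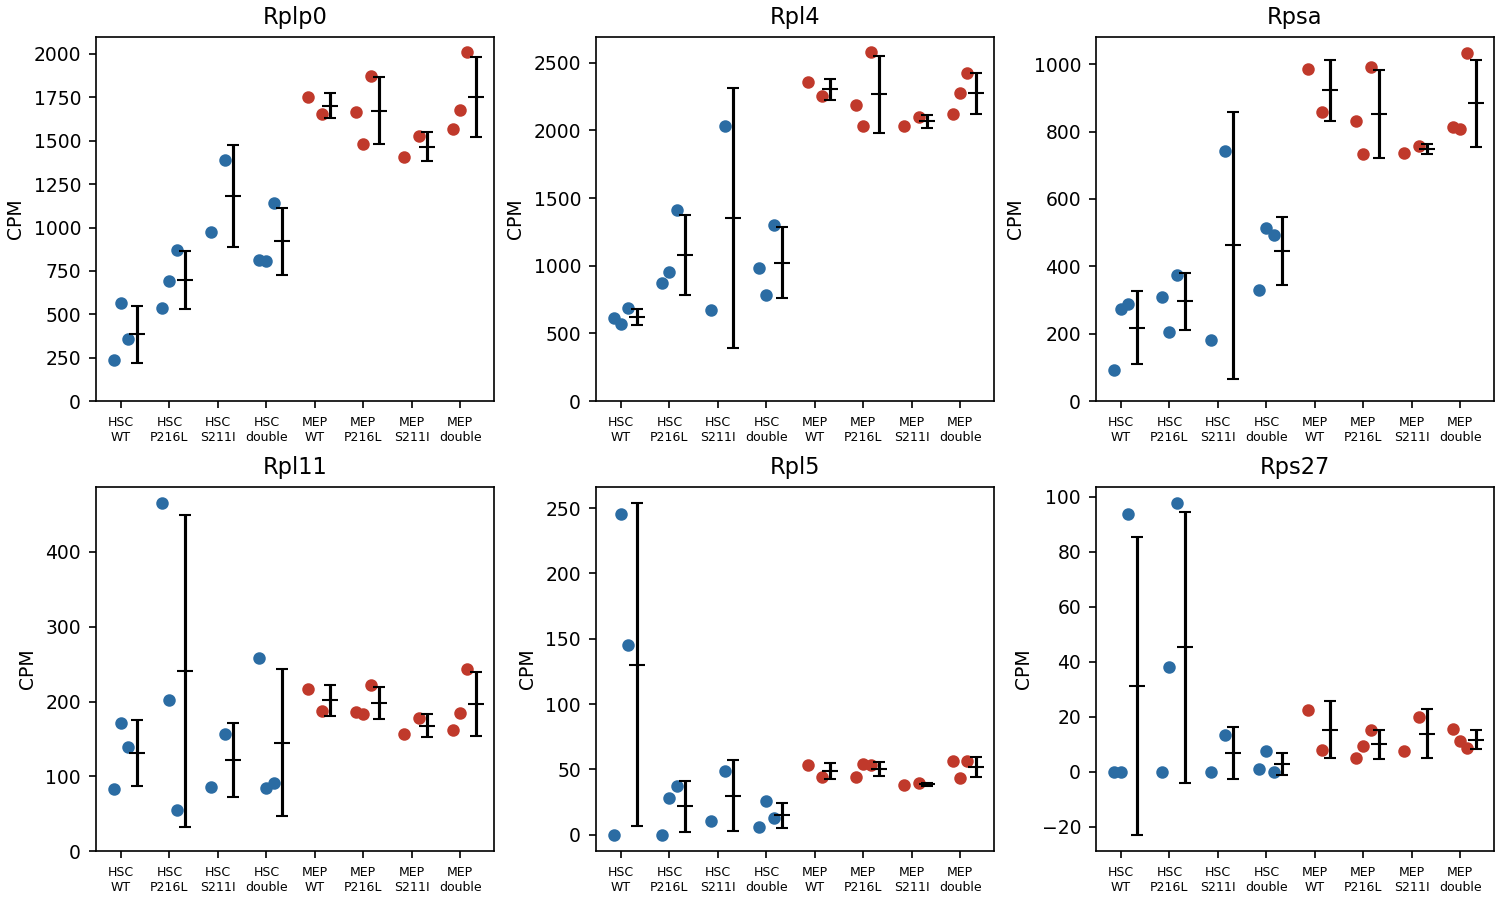
CPM of 6 genes in each library (points) by group, with group mean and SD as bars (blue HSC, red MEP), on a separate vertical scale for each gene. Rplp0 and Rpl4 are higher in every MEP library than in any HSC library, Rpsa overlaps through HSC S211I replicate 2 (742 CPM), and Rpl11, Rpl5 and Rps27 have HSC values on both sides of MEP.

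Of 18 genes whose loss causes Diamond-Blackfan anemia in people, all were tested, 16 had a log2 fold change above 0 and 1, Rps7, rose in WT MEP, where 62.9% of all genes were above 0 and 3.62% were called higher. The median of the 18 was 2.02. Rps19, the gene most often mutated in that disease, was at 384, 556 and 464 CPM in WT HSC and 877 and 752 CPM in WT MEP, with no overlap and a difference of 1.45 ± 0.54 (edgeR, adjusted p = 0.090). Rps24, Rpl26 and Rpl18 differed by 2.34 ± 0.73, 1.81 ± 0.65 and 2.03 ± 0.72 (edgeR, adjusted p = 0.059, 0.085 and 0.083). Rps26, Rpl15 and Rps28 had larger values and larger errors, at 2.81 ± 1.03, 3.34 ± 1.15 and 3.38 ± 1.29 (edgeR, adjusted p = 0.089, 0.077 and 0.097). For Rpl15 the WT HSC libraries held 127, 85.3 and 0 CPM against 399 and 382 CPM in MEP. Rps10, Rpl27, Rps29, Rpl35a, Rps15a and Rpl35 ranged from 1.07 (Rpl35) to 2.56 (Rpl27), with adjusted p-values from edgeR of 0.16 to 0.34.

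Separation of libraries gives a second view of the same WT values. Counted on the rounded counts, for 61 of the 77 genes both MEP WT libraries were above all 3 HSC WT libraries, and for 0 were both below, where 35.8% and 8.23% of all genes tested did so. Rpl37a, at 244.68 CPM in HSC WT replicate 1 and 244.70 CPM in MEP WT replicate 3, overlapped only after rounding. Within P216L all MEP libraries were above all HSC libraries for 55 of the genes (26.4% of all genes tested), within S211I for 57 (22.6%) and within the double mutant for 50 (21.2%). Across all 21 libraries, 16 of the genes were higher in each of the 10 MEP libraries than in each of the 11 HSC libraries, against 0.781% of all genes tested. They included Rplp0, Rplp1 and Rplp2 of the stalk, Rpl4, Rpl7a, Rpl8, Rpl15, Rpl26, Rpl27 and Rpl30 of the large subunit, and Rps2, Rps7, Rps9, Rps13 and Rps23 of the small. Rplp0, for example, ranged from 238 to 1388 CPM over HSC and from 1406 to 2010 CPM over MEP. Rpl4 ranged from 570 to 2032.5 CPM and from 2032.8 to 2583 CPM, so its highest HSC library, S211I replicate 2, and its lowest MEP library were nearly equal. Without HSC S211I replicate 2, an alternative chosen after seeing the data, the count was 23 (3.65% of all genes), with Rpsa, Rps6, Rpl3 and Rpl6 among those added, and without HSC P216L replicate 1 as well it was 26 (4.07%).

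Between the cell types of each mutant genotype no member passed. In P216L, 0 of 77 were called (0.0748% of all genes tested were called in either direction), 76 were above 0 and the median was 1.33 against 0.56 for all genes. At an unadjusted p below 0.05, 26 were higher and 0 lower, with 19.7% of all genes past that mark. The smallest p-values were those of Rplp0 at 1.61 ± 0.45, Rps6 at 1.79 ± 0.51 and Rpl3 at 1.72 ± 0.51 (edgeR, adjusted p = 0.098, 0.099 and 0.10). Rps6 held 579, 207 and 306 CPM in HSC P216L and 899, 811 and 951 CPM in MEP P216L. Its copy Rps6-ps4 held 340, 578 and 415 CPM in HSC P216L and 244, 242 and 461 CPM in MEP P216L. DESeq2 called 10 of the genes here, and edgeR called 4 without HSC P216L replicate 3, where the medians were 1.54 and 1.35 for all genes, 4 without HSC S211I replicate 2 and 2 in a fit of the compared groups alone. In S211I, 0 were called where 0% of all genes were, 77 were above 0 and the median was 0.68 against 0.42, with 0 genes of the set at an unadjusted p below 0.05 by edgeR (3.31% of all genes) and 0 called by DESeq2. Without HSC S211I replicate 2 the median was 1.76, below the 1.94 of all genes, and without HSC S211I replicate 1 it was 0.21 against 0.00. Rps18, Rpl35 and Rps2 had the smallest p-values there, at 1.21 ± 0.74, 1.06 ± 0.70 and 0.99 ± 0.71, and were 3.08 ± 0.94, 1.94 ± 0.87 and 3.17 ± 0.87 without HSC S211I replicate 2 (edgeR, adjusted p = 0.34, 0.35 and 0.30). In the double mutant, 0 were called (0.241% of all genes in either direction), 76 were above 0, 9 were higher at an unadjusted p below 0.05 (16.3% of all genes were past it), and the median was 0.80 against 0.09. Rpl4, Rplp0 and Rps2 led at 1.35 ± 0.44, 1.13 ± 0.44 and 1.46 ± 0.58 (edgeR, adjusted p = 0.12, 0.17 and 0.18), and DESeq2 called 2 genes and the fit of the compared groups alone 4.

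**Figure D5:**
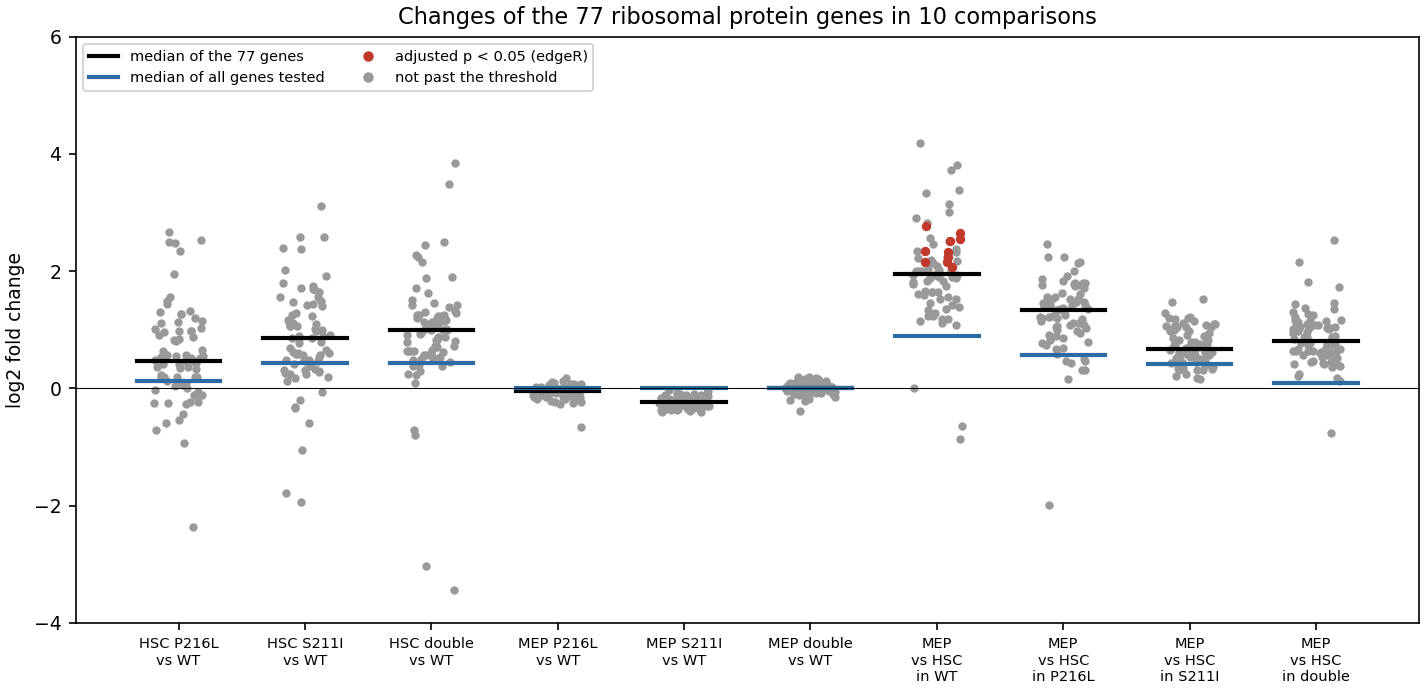
Each point is the log2 fold change of 1 of the 77 genes in 1 of 10 comparisons, red where the adjusted p was below 0.05 (edgeR), with the median of the 77 genes in black and of all genes tested in blue. Points spread widely in the 3 HSC comparisons, lie close to 0 in the 3 MEP comparisons, and are mostly above 0 in the 4 comparisons of MEP with HSC, where the medians are 1.95, 1.33, 0.68 and 0.80.

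Next the HSC groups were compared, which asks whether the Etv6 alleles alter the set in stem cells. No member passed in any of the HSC comparisons, where the median SE of a member was 1.44 to 1.62 on the log2 scale. Against WT, 60 of 77 genes were above 0 in P216L (median 0.48, all genes 0.13), 69 in S211I (0.86, all genes 0.43) and 73 in the double mutant (0.99, all genes 0.44). The share of all genes called in either direction was 0.106, 0.0845 and 0.0739%. At an unadjusted p below 0.05 edgeR had 0, 2 and 1 of the genes higher and 0 lower, while 12.9, 8.15 and 10.5% of all genes were past that mark. These comparisons share the 3 WT libraries. Scaling changed the counts: with RLE size factors 51, 56 and 70 of the genes were above 0, with medians of 0.25, 0.38 and 0.62, while the medians of all genes were −0.02, 0.02 and 0.15. DESeq2 called 0 of the genes in each of the 3. Without HSC S211I replicate 2, 38 of 77 were above 0 for S211I and the median was −0.03, equal at this rounding to that of all genes. The distance from all genes also rested on HSC WT replicate 3: without it the medians of the set and of all genes were 0.55 and 0.54 for P216L, 0.92 and 0.93 for S211I, and 0.99 and 0.85 for the double mutant. With the replicate number as a block they were 0.93 and 1.10 for S211I and 1.03 and 0.97 for the double mutant.

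Rplp0 had the smallest or second-smallest p-value in each of these 3 comparisons. It stood at 238, 563 and 358 CPM in WT, 534, 692 and 870 CPM in P216L, 975 and 1388 CPM in S211I, and 810, 809 and 1143 CPM in the double mutant. P216L overlapped WT by 1 library, while S211I and the double mutant lay above all WT values. The differences were 1.02 ± 0.65, 1.92 ± 0.71 and 1.51 ± 0.66 (edgeR, adjusted p = 0.52, 0.54 and 0.47). Rpl4 was at 615, 570 and 687 CPM in WT, 869, 951 and 1415 CPM in P216L, 674 and 2033 CPM in S211I, and 981, 782 and 1304 CPM in the double mutant. All P216L and double mutant libraries were above WT, and the differences were 0.97 ± 0.57, 1.49 ± 0.62 and 1.00 ± 0.57 (edgeR, adjusted p = 0.45, 0.60 and 0.52). Next in order were Rpl13 in P216L (1.12 ± 0.72), Rpl15 in S211I (2.58 ± 1.65) and Rpl23a in the double mutant (1.71 ± 1.04).

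By separation of libraries, 8 of the genes had all P216L libraries above all WT libraries (4.87% of all genes did), 15 had both S211I libraries above (16.6%) and 21 all double mutant libraries (11.3%). The 21 included Rplp0, Rpl4, Rpl6, Rpsa, Rps7, Rps18 and Rps25. Without S211I replicate 2, the remaining S211I library was above all WT libraries in 18 of the genes (26.5%) and below all in 15 (12.1%). In the other direction, 0 genes had all P216L or all S211I libraries below WT, where 4.69 and 6.13% of all genes did, and 1 gene had all double mutant libraries below all WT libraries, against 3.93% of all genes. Markers also differed between these groups. The 11 erythroid and MEP markers summed to 3224 to 6175 CPM in HSC WT and to 8586, 8327 and 23572.5 CPM in P216L. They summed to 9124 and 21051 CPM in S211I and 8238 to 14042 CPM in the double mutant, so WT was below all others. Such a sum does not mark MEP alone. Between MEP and HSC of P216L, Hba-a1, Hbb-bt and Itga2b of the 11 were at −3.05, −2.72 and −1.63 on the log2 scale. The others were above 0, and none passed. Marker and ribosomal protein sums did not rank alike. P216L replicate 3 had the highest marker sum in HSC, while its ribosomal protein sum of 18040 CPM was below every double mutant library. The 12 stem cell markers summed to 3690 to 6730 CPM in WT, 1931 to 4018 CPM in P216L, 4021 and 1120 CPM in S211I and 1936 to 3851 CPM in the double mutant. The part of these markers, and of depth, in the ribosomal protein values was not tested.

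Between the mutants in HSC, the double mutant had 60 of 77 genes above P216L (median 0.47, all genes 0.26) and 41 above S211I (0.08, all genes 0.07). Against P216L the set was below all genes without P216L replicate 2 (0.50 and 0.56) or replicate 3 (0.59 and 0.66). Against S211I, 66 were above 0 without S211I replicate 2 (0.77, all genes 1.00) and 6 without S211I replicate 1 (−0.68, all genes −0.37). None was called (0.0211 and 0.0106% of all genes were, in either direction), none was at an unadjusted p below 0.05 by edgeR (6.97 and 2.04% of all genes were), and DESeq2 called 0. All double mutant libraries were above all P216L libraries for 10 genes (6.88% of all genes) and below for 0 (1.85%), and above both S211I libraries for 8 (7.05%) and below for 6 (8.34%). Rps27 was −4.07 ± 3.14 against P216L, where P216L held 0, 38.1 and 97.6 CPM and the double mutant 0.979, 7.57 and 0 CPM. Summed with its copy Rps27rt, it held 51.7, 140 and 97.6 CPM in P216L and 153, 133 and 105 CPM in the double mutant. The pair was thus not lower in the double mutant. Rpl3 and Rps25 were 0.79 ± 0.67 and 1.38 ± 1.45 in that comparison. Against S211I, the double mutant differed by −0.85 ± 0.86 in Rps3a1, 0.96 ± 1.18 in Rpl35 and −0.49 ± 0.62 in Rpl4, which was 0.77 ± 0.87 without S211I replicate 2.

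In MEP the same comparisons were far more precise, with a median SE of 0.13 to 0.16 per gene, and no member passed in any of them. In P216L against WT 21 of 77 were above 0 and the median was −0.05 (all genes 0.01), and in the double mutant against WT 36 were above 0 and the median was 0.00 (all genes 0.01). Single libraries turned both counts. For P216L, 68 genes were above 0 without WT replicate 1 (median 0.085), 6 without WT replicate 3 (−0.17), and 0 without P216L replicate 3 (−0.16). For the double mutant, 67 were above 0 without WT replicate 1 (0.14), 9 without WT replicate 3 (−0.13) and 4 without double mutant replicate 3 (−0.14). None of all genes tested were called for P216L (0%), and 0.102% for the double mutant in either direction. No gene of the set was at an unadjusted p below 0.05 by edgeR in either comparison, where 5.12 and 5.24% of all genes were, and DESeq2 called 0. For P216L, Rpl35 differed by −0.26 ± 0.15 and Rps27 by −0.66 ± 0.50, and each was above 0 without MEP WT replicate 1. For the double mutant, Rpl29 differed by 0.20 ± 0.13 and Rplp2 by 0.18 ± 0.14. Rpl29 and Rplp2 were also the genes whose 3 double mutant libraries all lay above both WT libraries (13.8% of all genes did), with Rplp2 at 268, 268 and 331 CPM against 266 and 240 CPM, and 0 genes lay below (11% of all genes). No gene of the set had all P216L libraries above or below WT, where 10.7 and 6.97% of all genes did.

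Among the MEP groups, S211I had the lowest mean sum of the set. All 77 genes were below WT in the fitted change, from −0.41 to −0.03 with a median of −0.23, while the median of all genes was 0.00. None passed the test, nor did any of all genes tested (0%), DESeq2 called 0 as well, and at an unadjusted p below 0.05 edgeR had 6 lower and 0 higher (4.74% of all genes were past that mark). The 6 were Rpl13 (−0.40 ± 0.15), Rps6 (−0.36 ± 0.15), Rps19 (−0.36 ± 0.16), Rpsa (−0.34 ± 0.15), Rps23 and Rpl28, each with an edgeR adjusted p of 0.94. Rpl13 was at 881 and 902 CPM in S211I against 1296 and 986 CPM in WT, Rps6 at 752 and 731 CPM against 979 and 880 CPM, and Rps19 at 604 and 700 CPM against 877 and 752 CPM. None of these 3 overlapped, and for 43 of the 77 genes both S211I libraries were below both WT libraries, where 15% of all genes tested were. For 0 genes were both above both WT libraries, where 21.8% of all genes were. The mean sum was 0.866 times that of WT.

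This difference rested in size on MEP WT replicate 1. Without it 18 of the 77 genes were above 0 and the median was −0.12, and without replicate 3 instead all 77 were below 0 and the median was −0.36. Across the 10 MEP libraries, the double mutant replicate 3 had the highest value of 43 of the genes, P216L replicate 3 of 25 and WT replicate 1 of 8. S211I replicate 1 had the lowest value of 32 and S211I replicate 2 of 15. High libraries thus occurred in 3 of the 4 genotypes, 1 in each, and S211I had none.

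The double mutant carries S211I as well, and its MEP were compared with those of S211I alone. Here 76 of 77 genes were above 0, with a median of 0.25 (all genes 0.00), and none was called (0.139% of all genes were, in either direction). At an unadjusted p below 0.05 edgeR had 12 higher and 0 lower, against 7.62% of all genes past that mark. Rpl29 led at 0.34 ± 0.13, with 285, 289 and 333 CPM in the double mutant and 233 and 253 CPM in S211I, followed by Rplp2 at 0.34 ± 0.14 and Rps10 at 0.37 ± 0.15 (edgeR, adjusted p = 0.58, 0.59 and 0.61). For 36 of the genes all double mutant libraries were above both S211I libraries (13.3% of all genes) and for 0 below (17%). DESeq2 called 0 of the genes. Without double mutant replicate 3 the median was 0.09, with 60 genes above 0. Against P216L the double mutant had 56 genes above 0 and a median of 0.05, which was 75 and 0.18 without P216L replicate 3 and 7 and −0.094 without double mutant replicate 3, with none called (0.111% of all genes were, in either direction). None was at an unadjusted p below 0.05 by edgeR (4.27% of all genes were), DESeq2 called 0, and 0 genes separated the groups in either direction (4.58% of all genes were above and 4.95% below). Rpl36 led at 0.30 ± 0.16, followed by Rpl39 at 0.35 ± 0.20 and Rps15a at 0.23 ± 0.17.

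Whether an allele acted differently in the 2 cell types was tested as a difference of effects, MEP minus HSC. None of the 77 genes passed for P216L, S211I or the double mutant (0.0997, 0 and 0.0166% of all genes were called). The medians were −0.62, −1.20 and −1.13 against −0.20, −0.75 and −0.66 for all genes, and 12, 4 and 4 of the genes were above 0. With RLE size factors the medians were −0.25, −0.61 and −0.60 against 0.08, −0.22 and −0.22 for all genes. Without HSC WT replicate 3 they were −0.70, −1.34 and −1.19 against −0.62, −1.51 and −1.20, and for S211I without HSC S211I replicate 2 the median was −0.16 against 0.40, with 33 genes above 0. At an unadjusted p below 0.05 edgeR had 0, 5 and 1 lower and 0 higher, where 16.2, 10.6 and 15.2% of all genes were past that mark, and DESeq2 called 0. Rplp0 was among the 3 genes with the smallest p-values in each, at −1.16 ± 0.65, −2.30 ± 0.72 and −1.64 ± 0.65 (edgeR, adjusted p = 0.39, 0.32 and 0.25). Rpl13 was −1.31 ± 0.68 for P216L and −1.36 ± 0.68 for the double mutant, Rpl7a −2.69 ± 1.51 for P216L, Rpl4 −1.84 ± 0.71 and Rps6 −1.97 ± 0.81 for S211I, and Rpl23a −1.89 ± 0.93 for the double mutant. For S211I, Rplp0, Rpl4 and Rps6 were −1.57 ± 0.76, −0.29 ± 0.69 and −0.91 ± 0.85 without HSC S211I replicate 2. The 3 tests share the WT libraries of both cell types.

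Genes that work with the set were taken from 4 lists, and their counts between the WT cell types stand beside 3.62% of all genes called higher and 62.9% above 0. In all, 6 were called, a count that was 0 in a fit of the 2 WT groups alone, 15 with voom, 3 without MEP WT replicate 1 and 16 without HSC WT replicate 3. Of 12 further ribosomal proteins, fusion genes and paralogs, 9 were tested between the WT cell types and 1 rose in MEP: Rack1, a scaffold on the small subunit, with 126, 141 and 271 CPM in HSC and 1081 and 966 CPM in MEP (3.10 ± 0.62, edgeR, adjusted p = 0.0058). All 9 were above 0, with a median of 2.25. Of 21 translation factors and other genes whose messages start with the pyrimidine run, all were above 0 with a median of 1.90, and 4 rose: Npm1, a nucleolar chaperone of ribosome assembly (2.78 ± 0.56), Eef1g (2.95 ± 0.61), Naca, which binds new chains at the exit tunnel (2.76 ± 0.62), and Eef1a1, which delivers aminoacyl-tRNA (1.31 ± 0.34), with edgeR adjusted p-values of 0.0064, 0.0078, 0.013 and 0.028. Eef1g, for instance, was at 126, 205 and 89.5 CPM in WT HSC and 705 and 640 CPM in WT MEP. Of 19 genes of the mTORC1 axis, 16 were above 0 with a median of 0.91, near that of all genes, and 1 passed: Tsc2, a brake on mTORC1, was listed at 0 in all 3 WT HSC libraries and at 154 and 135 CPM in WT MEP, while the other HSC libraries held 16.9 to 349 CPM. Of 11 chaperones and importers of ribosomal proteins, all were above 0 with a median of 2.51 and none passed. Ipo9 and Tsr2, the escort of Rps26, were at 4.63 ± 1.50 and 4.74 ± 1.53 (edgeR, adjusted p = 0.065 for each). No gene of these lists was called in any other comparison.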

How the data were processed

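Expression was measured by low-input RNA sequencing (SMART-Seq v4 Ultra Low Input kit, per the labels' protocols) in 21 libraries. The deposited values are estimated counts per Entrez gene. FastQC, Salmon and GRCm39 are named in the submitters' processing notes, with no versions. Of each library's nonzero values, 6.09 to 33.1% were not whole numbers, and all values were rounded for the tests. Symbols came from RefSeq on GRCm38.p6 for 30211 of 30519 genes; the other 308 held 0.0442% of the counts. All 21 sample columns were used, and 0 were left out.

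CPM is the estimated count per 1e6 of the library's total. HSC, MEP and all libraries together were fitted with edgeR 4.0.16 (limma 3.58.1, R 4.3.3): TMM (trimmed mean of M-values) scaling, filterByExpr (minimum count 10, minimum total 15), quasi-likelihood tests, and Benjamini-Hochberg adjustment over all 9471, 10773 or 12036 genes tested, at 0.05. Comparisons between cell types came from the joint fit. All 77 genes passed the filter in each fit, and every library total is given as a range above. SE is the size of the log2 fold change over the root of the F statistic. The tests were also run on simulated counts. The outcome is not given here, so that run lends no support to the counts of 0 above.

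The genes and lists were chosen with earlier results of these data known. Named genes were the stalk, 5S particle and Diamond-Blackfan anemia lists, the 10 genes with the highest mean CPM and the 5 with the lowest, up to 6 called genes per direction and comparison with the smallest p or, where none was called, the 3 with the smallest p, and up to 4 called genes (or 2 uncalled) per related list. Some genes of the set stay in all counts but are not reported here by name. Alternatives were RLE size factors, fits without the low-count filter, a block for the replicate number, voom with quality weights, DESeq2 1.42.0, fits of the compared groups alone, and each compared library, or HSC S211I replicate 2, left out in turn.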

Additional observations from a re-analysis of the deposited data

How the results depend on the processing

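In WT, 10 ribosomal protein genes were called between MEP and HSC. The count was 2 with RLE size factors, 0 without the low-count filter, 17 with DESeq2, 0 in a fit of only the 2 groups, 16 without HSC S211I replicate 2, and 2 to 14 with each of the 5 WT libraries left out in turn. The 6 related genes called became 1 without the filter, 15 with voom, 11 with DESeq2, 0 in a fit of only the 2 groups, and 3 to 16 with each WT library left out. For P216L, 0 became 10 with DESeq2, 2 in a fit of only those groups, 4 without HSC S211I replicate 2 and 0 to 4 with each compared library left out. For the double mutant, 0 became 2 with DESeq2 and 4 in a fit of only those groups. With voom, 1 gene was called for HSC S211I against WT and 1, Rpl4, for the HSC double mutant against S211I (−0.94, limma voom adjusted p = 0.011). All other counts of ribosomal protein genes called stayed at 0 under each alternative run.

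The mean sums became, with TMM-scaled library sizes, 10729 (HSC WT), 15823 (HSC P216L), 22069 (HSC S211I) and 21778 CPM (HSC double mutant). In MEP they became 40707 (WT), 39403 (P216L), 34339 (S211I) and 40369 CPM (double mutant). Without the 3 genes of highest mean CPM the HSC sums were 13019 (WT), 15822 (P216L), 17815 (S211I) and 18859 CPM (double mutant). The MEP sums were then 29198 (WT), 28703 (P216L), 25224 (S211I) and 29255 CPM (double mutant). The count of genes with all MEP above all HSC libraries was 16, 23 without HSC S211I replicate 2, and 26 without HSC P216L replicate 1 as well.

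Single genes turned in sign as follows. None of them was past the threshold in the main fit, and under the alternatives only Rpl4 was, with voom as given above. With each library left out in turn, Rpl4 in the HSC double mutant against S211I was −1.50 to 0.77, turning without S211I replicate 2. In MEP P216L against WT, Rpl35 was −0.51 to 0.035 and Rps27 −1.27 to 0.26, each turning without MEP WT replicate 1. Between the WT cell types, Rpl5 was 0.037 with the replicate block and 0.25 with voom. Rps27 was 1.03 with the block, 1.10 with voom, and −1.40 to 9.12 with libraries left out, turning without WT HSC replicate 3 or WT MEP replicate 3 (0.069). Rpl27a was −0.86 with RLE, −0.067 without the filter, −0.13 with the block, −0.86 with DESeq2, −0.26 in a fit of only the 2 groups, and −0.58 to 0.54 with libraries left out, turning without WT HSC replicate 3. The causes were not tested.

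Replicate numbers gave no clear pairing between genotypes within a cell type. Deviations of same-numbered libraries correlated at −0.07 to 0.25 in HSC and −0.09 to 0.03 in MEP. Of the libraries, 4 of 11 HSC and 1 of 10 MEP correlated best with their own number. In groups of n = 2 the deviations mirror each other, and HSC were not checked against MEP of the same number. The check therefore cannot decide whether samples were paired. With the replicate number as a block, 7 of the 77 genes were called between the WT cell types and 0 in each other comparison. The 10 shallower HSC libraries held a median of 27.7 to 542 counts per gene of the set. HSC changes larger than their SE, such as that of Rplp0 in S211I against WT, also went uncalled. The parts of depth and of the spread between libraries in this were not told apart.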
